A study of Mus musculus with 6 samples.

Results

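Capg, Parvg and Fscn1 encode 3 proteins that act on actin filaments, and Actb encodes beta-actin itself, the filament's building block. The members are the probes whose symbol in the platform's probe table is one of these 4 genes. Each gene had 1 probe, so 4 of 10076 probes and 4 of 8841 named genes are described. Messenger RNA was measured on 6 single-colour arrays of primary macrophages from female C57BL/6 mice, 6 weeks old. The cells had been drawn out with thioglycollate, a medium that provokes inflammation without infection. No genetic change is named in the labels. Each of 6 groups had 1 array. Cells had No treatment or TSA alone, LPS with or without TSA, or GW3965 + LPS, again with or without TSA (the last named TSA + GW3965 + LPS). TSA, trichostatin A, blocks histone deacetylases. LPS, lipopolysaccharide, is sensed as a sign of bacteria through Toll-like receptor 4, and GW3965 activates the liver X receptors. GW3965 was given with LPS in both of its groups, and the labels used here give no dose, time or number of animals.

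Actin filaments grow mainly at their barbed end. Capg is a calcium-regulated member of the gelsolin family that covers this end and, unlike gelsolin, does not cut filaments; it is abundant in macrophages and serves ruffling and phagocytosis. Parvg is gamma-parvin, the blood cell member of a family that ties integrin-linked kinase at adhesions to actin. Fscn1 is fascin, which packs filaments into the tight bundles of filopodia and is best known in this lineage from mature dendritic cells. Actb is a common reference gene for messenger RNA measurements.

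The genes lie on 3 mouse chromosomes, and Actb and Fscn1 are immediate neighbours on chromosome 5 with 0 annotated genes between them. The RefSeq table of promoter windows (build GRCm38.p6, 250 bases before to 50 bases after each gene start) held 3 of the 4 genes, with 2 windows for Parvg. The genes were chosen by their intensities on these same 6 arrays, while the windows come from the reference alone. They are shown because TSA acts on chromatin proteins; which start of Parvg is used in these cells was not measured. All lie on the plus strand and read 5′ to 3′, and capitals mark matches to the motifs named after them.
Capg, chr6:72549397-72549696: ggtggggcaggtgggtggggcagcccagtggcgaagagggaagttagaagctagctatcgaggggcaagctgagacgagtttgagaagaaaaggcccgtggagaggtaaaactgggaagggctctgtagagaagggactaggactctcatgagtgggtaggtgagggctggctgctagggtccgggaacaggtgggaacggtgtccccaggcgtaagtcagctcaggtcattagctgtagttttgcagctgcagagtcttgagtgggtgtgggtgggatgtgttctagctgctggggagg
Parvg, first start, chr15:84324470-84324769: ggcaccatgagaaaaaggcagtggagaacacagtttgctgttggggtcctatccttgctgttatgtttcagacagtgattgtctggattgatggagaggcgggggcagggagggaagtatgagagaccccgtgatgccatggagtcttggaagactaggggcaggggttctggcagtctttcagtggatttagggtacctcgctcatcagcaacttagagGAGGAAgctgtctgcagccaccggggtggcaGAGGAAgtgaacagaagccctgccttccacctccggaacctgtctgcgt
Parvg, second start, chr15:84325869-84326168: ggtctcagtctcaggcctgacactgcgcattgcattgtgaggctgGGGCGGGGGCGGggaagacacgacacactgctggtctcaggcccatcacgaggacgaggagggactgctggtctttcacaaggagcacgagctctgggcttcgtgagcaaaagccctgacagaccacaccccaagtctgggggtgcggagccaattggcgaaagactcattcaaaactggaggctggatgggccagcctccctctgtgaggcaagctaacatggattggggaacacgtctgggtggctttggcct
Fscn1, chr5:142960105-142960404: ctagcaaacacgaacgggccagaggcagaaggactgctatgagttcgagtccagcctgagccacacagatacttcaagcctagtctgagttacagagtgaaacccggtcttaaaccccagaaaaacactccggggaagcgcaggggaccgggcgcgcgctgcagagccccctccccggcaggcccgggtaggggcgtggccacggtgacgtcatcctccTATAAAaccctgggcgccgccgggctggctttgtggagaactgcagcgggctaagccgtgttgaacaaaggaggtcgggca
Both strands were searched for the CArG box of serum response factor, NF-kB, AP-1 as TGANTCA, Sp1 as GGGCGG, the core of PU.1 as GAGGAA, and the TATA box as TATAAA. The Capg window held no match. At the first Parvg start GAGGAA stood at -30 to -25 and at 2 to 7, counted from 1 at the start base with no 0, and 28.3% of 32851 windows of this length hold it. The second Parvg start had 2 side-by-side Sp1 matches, from -205 to -200 and from -199 to -194, without overlap, and GGGCGG is in 35.7% of windows. The Fscn1 window had TATAAA at -31 to -26, found in 13.6% of windows. Matches to NF-kB (1.63% of windows), AP-1 (7.81%) and the CArG box (1.63%) were not found in these 4 windows. A match is a description of letters only. The Fscn1 window was 61.7% G or C with 21 CpG pairs, above the median of all windows (52.7% and 7). That of Capg was 58% with 7 CpG pairs, and those of Parvg 55% with 6 and 60% with 11.

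The deposited values are linear intensities whose median was 0.981 to 0.987 on every array. Values under an array's 25th percentile, 0.198 to 0.245, were raised to it as a floor before log2; no value of the 4 genes was under it. Differences were read in 7 pairs of arrays, namely 3 with and without TSA, 2 with and without LPS, and 2 with and without GW3965. A gene was measured in a pair when its brighter array was at or above that array's median, and 2-fold was the size threshold. With 1 array per group a single pair carries no error and no test, and neighbours in any order of levels have no replicate spread to be set against. The 4 genes were selected on these differences, so their values are descriptions. That holds too where arrays with and without a treatment do not overlap, since the share of all genes that separate so is not given. All 4 passed the level filter, but Parvg was above the array median only on the 3 arrays without TSA and Fscn1 only on the 4 with LPS.

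Macrophage markers were present: 7 of 9 were on the array and 6 of those were at or above the median on all 6 arrays, with lysozyme, Lyz2, at 729 to 1050. The exception was Adgre1. It read 0.73 with No treatment, under that array's median of 0.984, and 1.06 to 2.84 on the other arrays. Among markers under the floor on all arrays were Cd3e and Cd8a of T cells and the neutrophil enzyme Mpo. Also under it were the natural killer cell Prf1, the endothelial Cdh5, the mesothelial Msln and the dendritic cell receptor Ccr7. Each of their lists also had a marker above the floor on all arrays. Cd4 read 1.17 to 2.16, S100a8 22 to 78.8 and Klrd1 0.299 to 0.499. Kdr read 0.945 to 2.99, Dcn 5.21 to 11.8 and Itgax 9.53 to 24. The floored markers therefore do not show that a cell type was absent. Some summed marker levels separated with treatment. Those of the macrophage, T cell, natural killer cell, mast cell and endothelial lists overlapped for both TSA and LPS. With so few arrays and many lists, some sums can separate without any effect of a treatment. With TSA the dendritic cell list (4 of 9 on the array) summed to 14 to 18.2, against 22.7 to 29.7 without it. Most of it was the integrin Itgax, which macrophages also express. Its members Cd83 and Flt3 did not separate. Cd83 read 1.17, 5.42 and 4.64 without TSA and 1.34, 3.73 and 6.47 with it. Flt3 read 0.958, 0.965 and 1.18 against 1.03, 1.44 and 0.846. With TSA the eosinophil list (4 of 4) summed to 3.8 to 4.78 against 4.84 to 5.97. With LPS the neutrophil list (7 of 9, most of it S100a8) summed to 52 to 81.3 against 24.3 to 34.2. In that list Ltf went the other way, at 0.306 to 0.435 against 0.771 and 1.11. The B cell list (4 of 6) summed to 6.9 to 8.24 with LPS against 6.29 to 6.33. The fibroblast and mesothelial list (7 of 9, most of it Dcn) summed to 15.1 to 16.4 with LPS against 9.67 to 14.6. Its member Krt19 went the other way, at 0.38 to 0.518 against 0.78 and 1.16. The smooth muscle list (5 of 5, Cnn1 and Des under the floor on all arrays) summed to 2.05 to 2.46 with LPS against 2.85, and the platelet and red cell list (5 of 5, most of it Pf4) to 17.6 to 28.1 against 17.3 to 17.6. The part of these cells in the results below was not tested. In bulk RNA, fewer cells of a type and less RNA per cell cannot be told apart.

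Capg, the capping protein, was lower with TSA in all 3 pairs. Its intensity was 91.7 with No treatment, 113 with LPS and 88 with GW3965 + LPS, and it was 28.8 with TSA, 19 with TSA + LPS and 40.6 with TSA + GW3965 + LPS. The 3 arrays without TSA all lay above the 3 with it, which is description only, since Capg was chosen on these values. Capg was 3.18-fold lower with TSA in resting cells, 5.95-fold lower under LPS and 2.17-fold lower under GW3965 + LPS. The mean log2 difference was -1.79 ± 0.74 (SD, n = 3 pairs). Among measured genes it had the 18th lowest difference of 4729 in resting cells, the 7th lowest of 4794 under LPS and the 41st lowest of 4697 under GW3965 + LPS.

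Parvg, the adhesion protein, was lower with TSA by a similar size from a much dimmer signal. It read 3.01 with No treatment, 1.55 with LPS and 1.21 with GW3965 + LPS, against 0.728 with TSA, 0.549 with TSA + LPS and 0.438 with TSA + GW3965 + LPS. The 3 values without TSA were again all above the 3 with it, with the same limit. All 3 TSA arrays were under their array's median. The fold was 4.13 lower at rest, 2.82 lower under LPS and 2.76 lower under GW3965 + LPS, with a mean log2 difference of -1.67 ± 0.33 (SD, n = 3 pairs). With the floor raised to the array median this mean was -0.85, since the 3 TSA values then stand at the floor. Parvg had the 5th lowest difference in resting cells, the 122nd lowest under LPS and the 16th lowest under GW3965 + LPS.

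Fscn1, the bundling protein, was higher with LPS and lower with TSA. Its intensity was 0.618 with No treatment and 0.446 with TSA, both under the array median, and 2.63 with LPS, 1.16 with TSA + LPS, 1.82 with GW3965 + LPS and 1.01 with TSA + GW3965 + LPS. The 4 LPS arrays all lay above the pair without LPS, again description only, while arrays with and without TSA overlapped. Fscn1 was 4.26-fold higher with LPS alone and 2.6-fold higher with LPS in cells given TSA, a mean log2 difference of 1.73 ± 0.50 (SD, n = 2 pairs), or 0.83 with the floor raised to the array median. With TSA it was 1.38-fold lower at rest, where it did not count as measured, 2.27-fold lower under LPS and 1.79-fold lower under GW3965 + LPS, and the mean was -0.83 ± 0.36 (SD, n = 3 pairs). Ccr7, which marks mature dendritic cells, was under the floor on every array, while the LPS-induced cytokine genes Tnf and Il1b stood at 26.1 to 77.3 and 475 to 748 on the 4 LPS arrays. Cd83, which both dendritic cells and activated macrophages carry, read 1.17 and 1.34 without LPS and 3.73 to 6.47 with it. The other dendritic cell markers on the array were Flt3, at 0.846 to 1.44, and Itgax, at 9.53 to 24. What part dendritic cells have in the Fscn1 values was not tested.

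Actb varied least of the 4. It read 802 with No treatment, 565 with TSA, 805 with LPS, 949 with TSA + LPS, 819 with GW3965 + LPS and 781 with TSA + GW3965 + LPS. The highest array was 1.68-fold above the lowest, while this ratio was 5.95 for Capg, 6.88 for Parvg and 5.9 for Fscn1. Its lowest value was with TSA alone and its highest with TSA + LPS. Its mean log2 difference with TSA was -0.11 ± 0.37 (SD, n = 3 pairs). After quantile normalization this mean was -0.24 ± 0.13 and after cyclic loess -0.41 ± 0.25, and all 3 pairs were then lower. The sign of the difference under LPS turned with the scaling, from 0.24 as deposited to -0.21 and -0.32. Actb stood close to the top of the scale, where the brightest probe of an array read 912.9 to 1332, and its probe cannot be checked here for RNA of the near-identical gamma-actin.

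**Figure D1:**
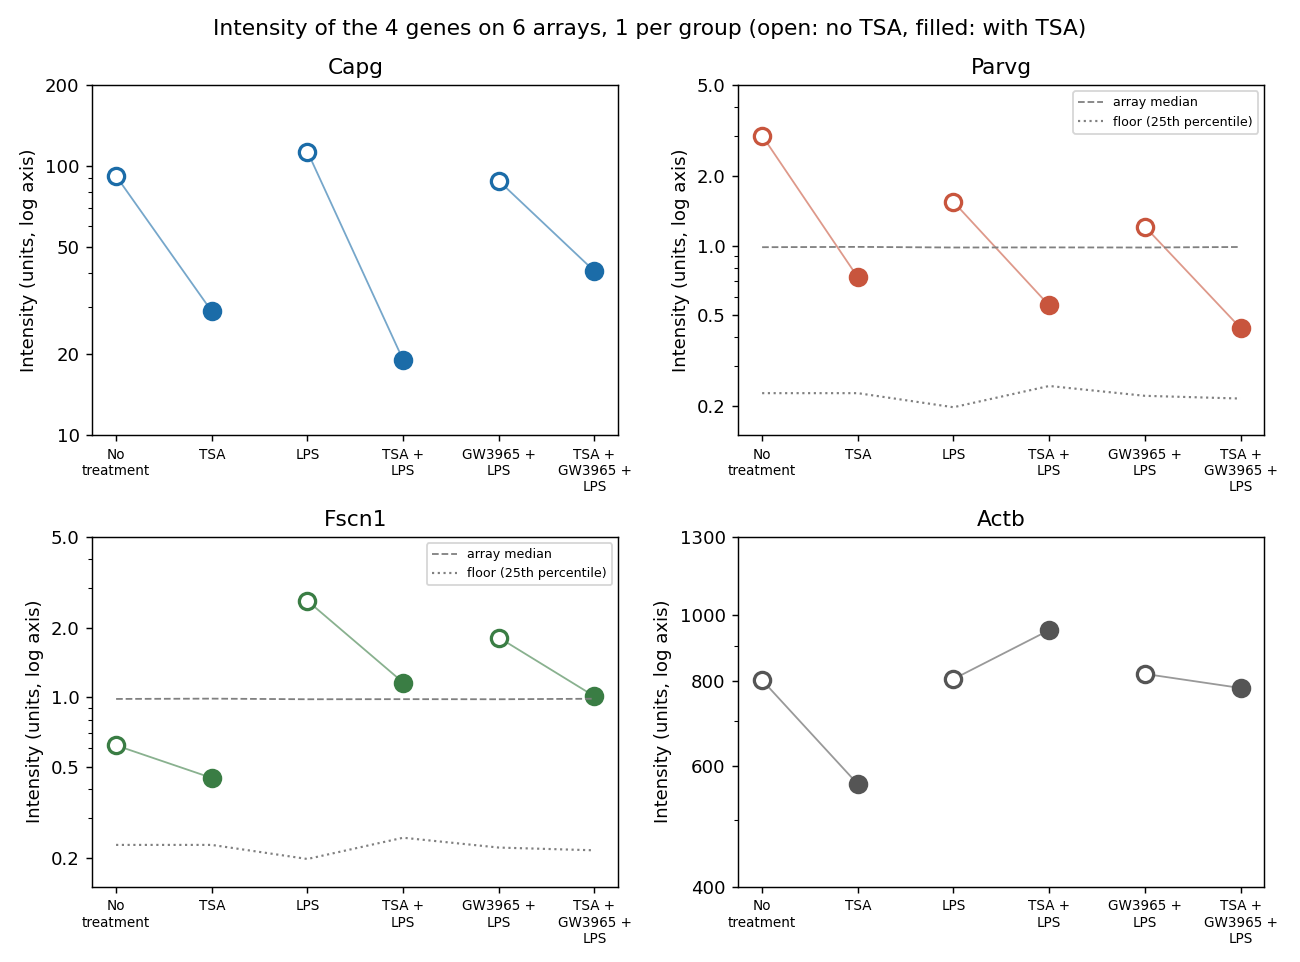
Intensity of Capg, Parvg, Fscn1 and Actb (y axes, units of intensity, log scale) on the 6 arrays (x axis), 1 point per array, open without and filled with TSA, each line joining a pair that differs by TSA; in the Parvg and Fscn1 panels the dashed and dotted lines are the array median and the floor. Capg reads 91.7, 113 and 88 without TSA and 28.8, 19 and 40.6 with it, and all filled Parvg points lie under the median line.

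Counted by comparison, 2 of the 4 genes, Capg and Parvg, were at least 2-fold lower with TSA at rest, where 4.69% of measured genes were. Capg, Parvg and Fscn1 were so under LPS (9.55% of measured genes), and Capg and Parvg under GW3965 + LPS (1.13%). None of the 4 was 2-fold higher with TSA in these pairs, where 6.98%, 7.57% and 4.83% of measured genes were, in the same order. Only Fscn1 was at least 2-fold higher with LPS, both without TSA (14% of measured genes) and with it (9.2%). None of the 4 was 2-fold lower with LPS (6.05% and 6.37% of measured genes), though Parvg was 1.94-fold lower in the pair without TSA, a log2 difference of -0.96 that was -1.05 after quantile normalization. Because these differences chose the genes, the counts are not read against the shares.

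Under LPS alone Capg stayed within 2-fold, and the Parvg signal was lower. Capg was 1.23-fold higher with LPS in cells without TSA and 1.52-fold lower in cells given TSA, and after quantile normalization the first of these was -0.08 on the log2 scale in place of 0.30. Quantile normalization moved the median of all measured genes in that pair from 0.02 to -0.17. Parvg was lower with LPS in both pairs, by a mean log2 difference of -0.68 ± 0.39 (SD, n = 2 pairs), and in the pair with TSA both of its arrays were under the median. Actb read nearly the same with and without LPS, 805 and 802, and was 1.68-fold higher with LPS in cells given TSA, a log2 difference of 0.75 that was 0.27 after quantile normalization and after cyclic loess.

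GW3965 was examined within LPS-treated cells. Capg was 1.29-fold lower with GW3965 in LPS cells and 2.13-fold higher with it in TSA + LPS cells. The second of these, 1.09 on the log2 scale and 0.97 after quantile normalization, was the 53rd highest of 4682 measured differences, and 1.75% of measured genes were at least 2-fold higher there, against 0.476% in the pair without TSA. Put the other way, the log2 difference of Capg with TSA was -2.57 without GW3965 and -1.12 with it. Parvg was 1.28-fold and 1.26-fold lower with GW3965, Fscn1 1.45-fold and 1.14-fold lower, and Actb 1.02-fold higher (lower after quantile normalization or cyclic loess) and 1.22-fold lower. In these 2 pairs 1.25% and 0.577% of measured genes were at least 2-fold lower, and none of the 4 was.

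**Figure D2:**
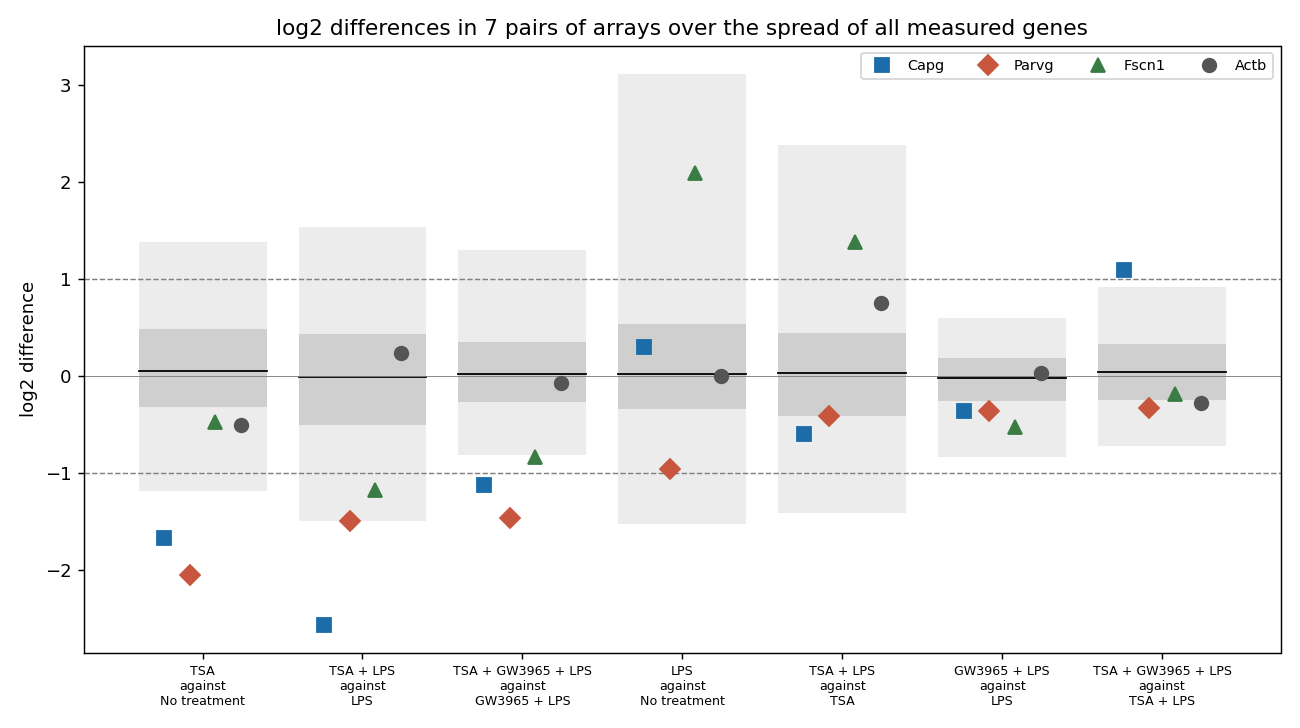
log2 differences (y axis) of the 4 genes in 7 pairs of arrays (x axis), over bars that span the middle 50% (dark) and middle 95% (light) of measured genes, with their median as a black line and 2-fold as dashed lines. Capg at -2.57 in TSA + LPS against LPS lies lowest, and Fscn1 at 2.09 in LPS against No treatment stays inside the light bar.

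Since Actb often serves as the reference, the differences were also taken relative to it on the same arrays. Per 1000 units of Actb, Capg read 114, 141 and 107 on the arrays without TSA and 51.1, 20.1 and 52 on those with it. Parvg read 3.75, 1.93 and 1.48 against 1.29, 0.579 and 0.561. For these genes all 3 TSA differences stayed past 2-fold relative to Actb, as deposited and after either scaling. Dividing by Actb changed the 2-fold call in 1 of 7 pairs for each of the 3 genes, always TSA + LPS against TSA. There Capg went from -0.60 to -1.35, Parvg from -0.41 to -1.16 and Fscn1 from 1.38 to 0.63 on the log2 scale. These changes rest on the Actb difference in that pair, 0.75 as deposited and 0.27 after either scaling. In a check chosen after the values were seen, Parvg relative to Actb was -0.72 after quantile normalization and -0.69 after cyclic loess, short of 2-fold, and Fscn1 was 1.12 and 1.10, past it. Capg stayed just past it at -1.02 and -1.05. In TSA + LPS against LPS, Fscn1 relative to Actb was -1.42 as deposited, but -0.92 and -0.87 after the scalings, short of 2-fold. Fscn1 per 1000 Actb was 0.77 with No treatment and 0.79 with TSA, so its lower raw value with TSA at rest was matched by that of Actb on these arrays. Of 15 reference genes on the array, counting Actb, 3 spanned a smaller range than its 1.68-fold: Tbp with 1.44-fold, Rplp0 with 1.47-fold and B2m with 1.56-fold. Gapdh spanned 1.99-fold, from 405 with LPS to 807 with TSA + LPS. In the limma fit described below, 1 of the 14 others rose with TSA (Pgk1, 0.71) and 3 fell (Eef1a1, -0.78, Ywhaz, -0.72, and Gusb, -0.62), 28.6% called beside 18.5% of all genes. Each of these 4 lost its call when at least 1 pair was left out. With LPS limma called 0 of the 14, with 2 at an unadjusted p under 0.05, beside 19.4% of all genes called.

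Relatives of the 4 genes were read the same way. Gelsolin, Gsn, the filament-cutting relative of Capg, read 52.5, 40 and 34.3 on the arrays without TSA and 70.2, 43.2 and 57.1 with it. Its TSA effect of 0.42 (SE 0.20) did not pass limma (adjusted p = 0.163). Villin, Vil1, read 0.887 to 1.4; advillin, Avil, failed the level filter, and scinderin, Scin, was under the floor on all arrays. Parva, the parvin of most tissues, read 0.366 to 0.654 and failed the level filter. Ilk, the kinase that parvins bind, read 25.9 to 33, with a TSA effect of 0.12 (SE 0.21, limma adjusted p = 0.735). Among other actins Actg1, gamma-actin, fell with TSA and rose with LPS. It read 6.06, 12.2 and 9.47 without TSA and 2.23, 3.97 and 6.84 with it in the matching backgrounds, lower in each. The TSA effect was -1.18 (SE 0.24, adjusted p = 0.0023) and the LPS effect 0.92 (SE 0.29, adjusted p = 0.0304, higher in 2 of 2 pairs, but 0.0549 after quantile normalization). The muscle actins Acta2 and Actc1 read 0.741 to 1.13 and 1.36 to 2 and did not pass, and Acta1 and Actg2 were under the floor on all arrays.

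To place the 4 genes among other actin genes, 174 more symbols in 7 lists were followed through one additive limma fit of all genes, with terms for LPS, GW3965 and TSA. Of these, 120 were on the array and 83 passed the level filter. A gene rose or fell when its Benjamini-Hochberg adjusted p, two-sided over 5080 genes, was under 0.05. With TSA 17 of the 83 fell and 4 rose, 25.3% called, beside 18.5% of all genes (7.54% fell and 11% rose). The median effect was -0.23, and 0.01 over all genes. Without the No treatment and TSA pair 9 fell and 2 rose, without the LPS and TSA + LPS pair 13 fell and 5 rose, and without the GW3965 pair 18 fell and 1 rose. Over all genes these fits had 272 fallen and 351 risen of 4879, 288 and 635 of 4976, and 321 and 336 of 5045. With the floor raised to the array median 4 of the actin genes fell and 1 rose, beside 100 and 241 of all 5080 genes.

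By role, the genes that fell with TSA spread over all 7 lists. Over all genes tested 7.54% fell and 11% rose, and counts in lists this small are description only. Of 13 adhesion genes 4 fell and 0 rose. The filament elongation protein Vasp fell by 1.33 (SE 0.26, adjusted p = 0.00189), its adhesion partner Zyx, zyxin, by 0.98 (SE 0.23), the integrin chain Itgax by 0.99 (SE 0.21) and Itgb2, the common chain of leukocyte integrins, by 0.77 (SE 0.21), each lower in 3 of 3 pairs. Of 8 nucleation genes 3 fell, the Arp2/3 complex subunits Arpc4 and Arpc1b and the cortactin relative Hcls1, and Cyfip2 of the WAVE complex rose. Among 18 monomer, severing and capping genes 3 fell, namely the monomer carriers Pfn1 and Cap1 and the severing protein Cfl1, and 3 rose. Pfn2, a profilin best known from neurons, rose by 3.02 (SE 0.25, adjusted p = 3.75e-07), from 0.312 to 0.641 without TSA to 2.65 to 5.43 with it, while its family member Pfn1 fell by 0.87 (SE 0.21, adjusted p = 0.00769). The Pfn2 values without TSA were under the array median, and its effect ran from 1.86 to 3.21 over alternative settings. Coro1a, coronin of leukocytes, and Cfl2 rose by 0.91 and 0.74. Among these calls Coro1a, Cap1 and Arpc4 each had 1 of 3 pairs going the other way: Coro1a read 16.3 without and 15.5 with TSA at rest, and under GW3965 + LPS Cap1 read 10 and 10.3 and Arpc4 6.14 and 6.22.

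Among 16 bundling and crosslinking genes, the list of Fscn1, 2 fell with TSA and 0 rose: Lcp1, the plastin of leukocytes, by 0.87 (SE 0.24) and the membrane-binding Marcksl1 by 0.83 (SE 0.28), the latter lower in 2 of 3 pairs and under the floor on both arrays of the resting pair. Of 9 myosin and tropomyosin genes Tpm3 fell by 1.03 (SE 0.22) and the myosin light chain Myl12a by 0.99 (SE 0.23). For Msn and Myo1e the mean TSA differences were -0.53 and -0.63, with limma adjusted p of 0.159 and 0.184.

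The TSA calls for Actg1, Itgax, Tpm3 and Pfn2 held under all 11 alternatives. Those of Vasp, Zyx and Myl12a were lost only with the floor raised to the array median (limma adjusted p = 0.0516, 0.0585 and 0.0558), with effects still at -1.33, -0.98 and -0.99. Without the resting pair 11 calls were lost, among them Arpc4, Arpc1b, Hcls1, Itgb2, Pfn1, Cfl1, Cap1, Cfl2 and Cyfip2, with effects of -0.77, -0.66, -0.55, -0.70, -0.71, -0.48, -0.58, 0.46 and 0.63. Without the LPS and TSA + LPS pair Lcp1, Marcksl1, Cap1 and Coro1a did not pass, at -0.60, -0.49, -0.48 and 0.59. Without the GW3965 pair Arpc1b, Cfl1, Marcksl1, Cfl2, Coro1a and Cyfip2 did not, at -0.77, -0.78, -0.76, 0.87, 0.73 and 0.74. With no intensity trend Cap1 and Cfl1 were among those also lost, and Marcksl1 with cyclic loess. No call changed its sign.

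With LPS 14 of the 83 rose and 3 fell, 20.5% called, beside 19.4% of all genes (12.3% rose and 7.11% fell), and the median was 0.07 against 0.03 over all genes. After quantile normalization 13 rose and 8 fell, and with the floor raised to the array median 8 rose and 0 fell. Bundling genes held 6 of the 14 that rose, which is 37.5% of the 16 tested in that list. Marcksl1 rose by 3.68 (SE 0.34, adjusted p = 8.18e-08), from values under the floor without LPS to 1.73 to 5.33 with it, and this size depends on the floor. Eps8, which caps and bundles filaments, rose by 1.69 (SE 0.24, adjusted p = 2.09e-05), the kinase C substrate Marcks by 1.30 (SE 0.24), Dbnl by 1.2, Cnn3 by 1 and Lcp1 by 0.93. Of adhesion genes Vasp rose by 1.89 (SE 0.32, adjusted p = 0.000186), Zyx by 1.41 (SE 0.28) and the adaptor Crk by 0.85, and the integrin chain Itgb5 fell by 1.08. Elsewhere the capping subunit Capza2 rose by 1.2, the pointed-end capper Tmod3 by 1.04 and Hcls1 by 1.18. The myosin Myo5a fell by 0.77. Without the GW3965 pair Myo5a did not pass, at -0.77 with a limma adjusted p of 0.0956. Of the 17 calls, 8 (Capza2, Dbnl, Eps8, Marcks, Marcksl1, Tmod3, Vasp and Zyx) held under all 9 alternatives that could be fitted, and 7 were lost only with the raised floor. Among the 7, Cnn3, Crk, Itgb5 and Lcp1 then had effects of 1, 0.85, -1.08 and 0.88, near their size before, while that of Hcls1 was 0.26 in place of 1.18. For Myo7a, Pfn2, Tpm3, Arpc5 and Arpc1a the mean LPS differences were -0.92, -0.81, 0.76, 0.50 and -0.46, and they did not pass.

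**Figure D3:**
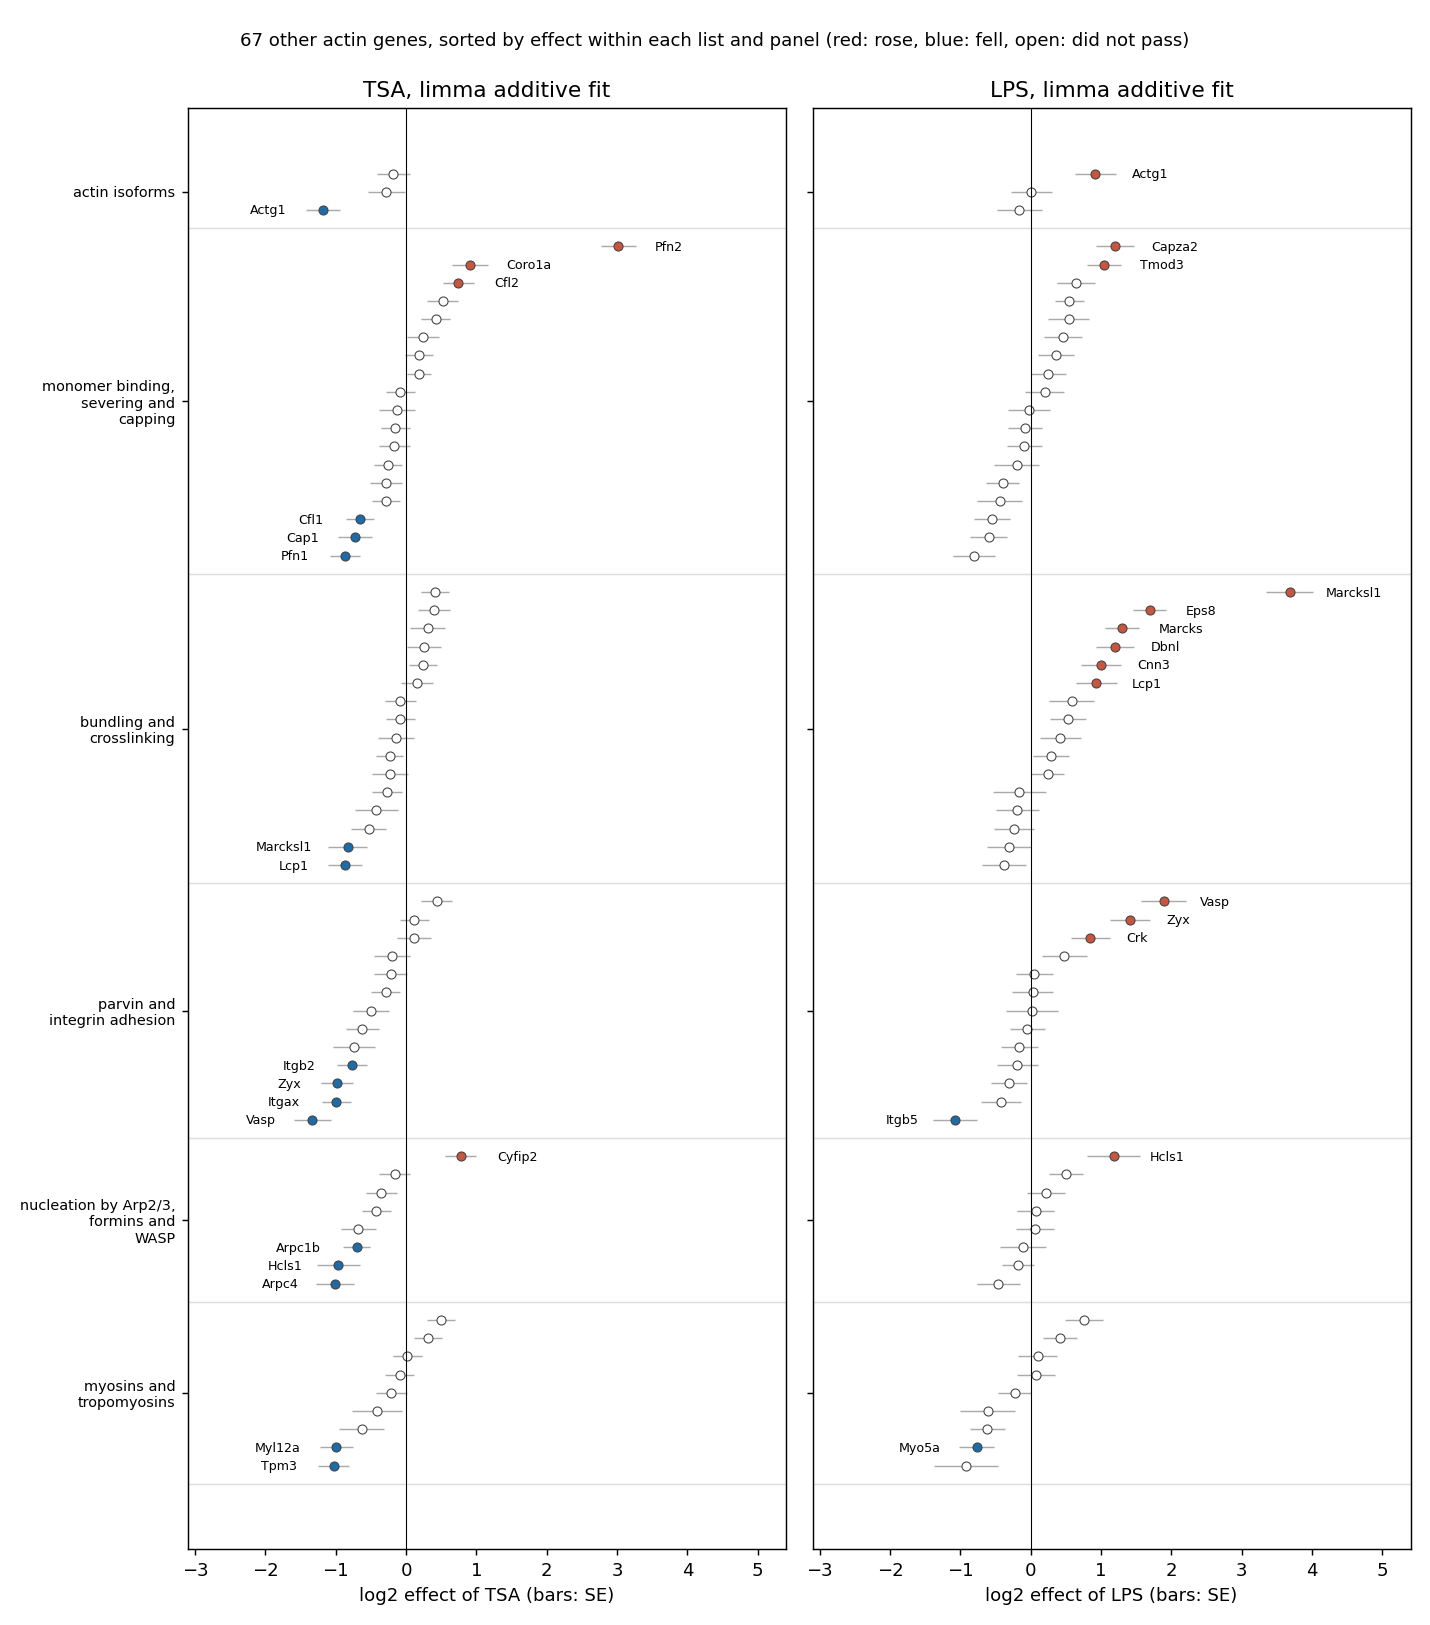
Effects of TSA (left) and LPS (right) on 67 other actin genes in 6 lists (y axis), as log2 effect from the additive limma fit (x axis) with SE bars, sorted within each list and panel; red rose, blue fell, open did not pass. Blue points outnumber red with TSA (15 and 4) and red outnumber blue with LPS (13 and 2). Over all genes tested 7.54% fell and 11% rose with TSA. With LPS 12.3% rose and 7.11% fell, so more genes rose than fell there too.

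For GW3965 limma called 0 of the 83 genes, with 2 at an unadjusted p under 0.05, and 0.0787% of all genes. A limma fit with an added TSA by LPS term asked whether the TSA effect differed between resting and LPS-treated cells. It called 0 of the 83, with 8 at an unadjusted p under 0.05, and 0.236% of all genes. For the 4 genes themselves this was not tested. In values, the LPS response of Fscn1 was 2.09 without TSA and 1.38 with it, that of Capg 0.30 and -0.60, that of Parvg -0.96 and -0.41, and that of Actb 0.00 and 0.75.

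Several other actin genes were, like Fscn1, higher with LPS alone and lower with TSA under LPS. Both differences use the same LPS array, so a high reading on it alone can give this pattern. The share of all genes with the pattern is not given. In the additive fit 6 other actin genes were called as risen with LPS and fallen with TSA. Of these Vasp, Zyx, Actg1 and Lcp1 were picked after their values were seen, and Marcksl1 and Hcls1 were left out. Vasp read 3.5 with No treatment, 20.1 with LPS, 4.12 with TSA + LPS, 10.7 with GW3965 + LPS and 6.61 with TSA + GW3965 + LPS. Zyx read 3.75, 13, 4.46, 6.71 and 4.38 in the same order, and Lcp1 1.44, 3.56, 1.35, 3.19 and 2.16. On all 4 the LPS array was the highest of the 6. Their full order over the arrays was not always that of Fscn1. With TSA + LPS, Actg1 (3.97) and Lcp1 (1.35) read below No treatment (6.06 and 1.44), while Vasp, Zyx and Fscn1 read above it.

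**Figure D4:**
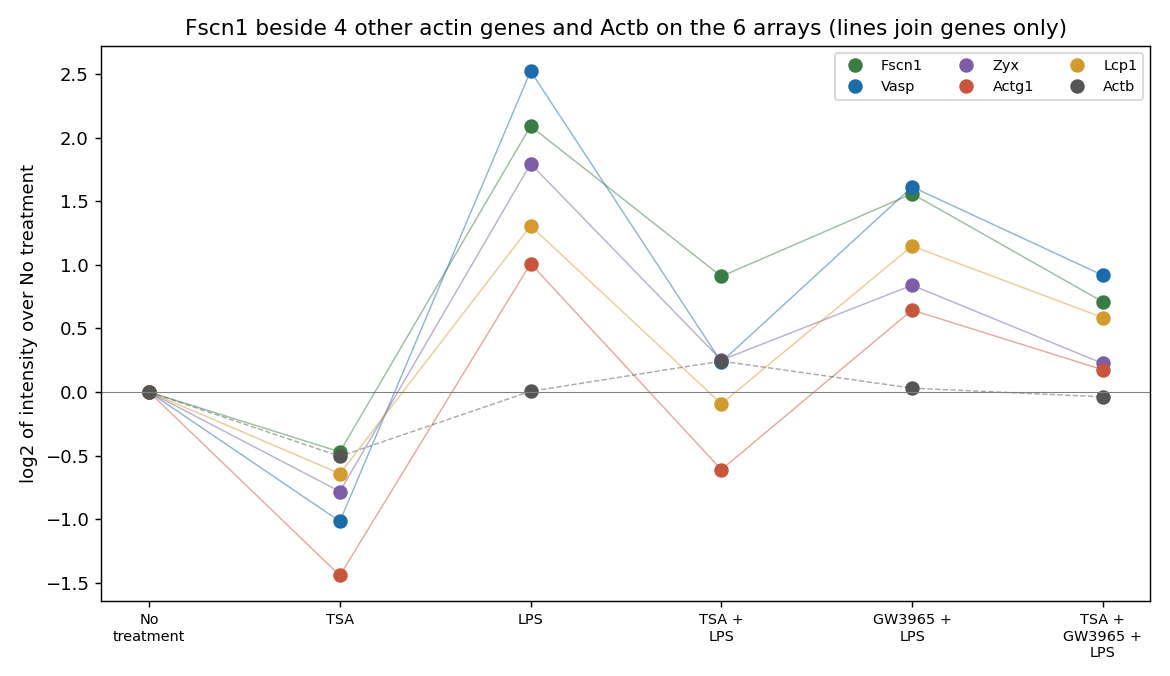
log2 of intensity over the No treatment array (y axis) for Fscn1, Vasp, Zyx, Actg1, Lcp1 and Actb on the 6 arrays (x axis), 1 point per array; lines only join the points of a gene. Every gene but Actb peaks with LPS alone, and Actb stays between 565 and 949 units.

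Across the 6 arrays the genes most like each member by Pearson's r of log2 intensity, of 5079 compared, were as follows. Those for Capg were Skap2, an adaptor of integrin signalling in blood cells (r = 0.99), Get4 (0.988), Srrt (0.986), Egln2 (0.985) and Meaf6 (0.982); Skap2 read 15 to 15.4 without and 6.46 to 10.6 with TSA. For Parvg they were the cell cycle factor Foxm1 (0.993), Ppp2r3d (0.992), Taf1c (0.991), Cyb561d2 (0.984) and Mtx1 (0.983). For Fscn1 they were the cytokine gene Ifng (0.994), Nfya (0.992), the stress phosphatase subunit Ppp1r15a (0.99), Fcho1 (0.99) and Cemip2 (0.988). For Actb they were the endocytic Ehd3 (0.972), Vapb (0.960), Pdcl3 (0.959), Pa2g4 (0.956) and Marchf8 (0.951). An r of 0.95 or more was reached by 50 genes for Capg, 55 for Parvg, 107 for Fscn1 and 5 for Actb, and with 6 shared arrays these lists describe likeness only. Between the members r was 0.79 for Capg with Parvg, 0.47 for Capg with Fscn1, 0.60 for Fscn1 with Actb, 0.09 for Capg with Actb, 0.07 for Parvg with Fscn1 and 0.06 for Parvg with Actb.

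The nearest genes on the array along the chromosome did not share one direction; other annotated genes lie between most of them and the members. With TSA limma called 18.5% of all genes, and whether neighbours share an effect was not tested. Before Capg on chromosome 6, the vesicle fusion gene Vamp8 fell with TSA and Vamp5 rose. Vamp8 read 72.1, 68.2 and 71.6 without TSA and 39.4, 37.9 and 45.1 with it (limma adjusted p = 0.00921, and 0.0542 without the GW3965 pair, lower in 3 of 3 pairs). Vamp5 read 4.2, 2.56 and 2.42 without TSA and 9.55, 9.15 and 8.38 with it, a mean log2 difference of 1.60 ± 0.37 (SD, n = 3 pairs; adjusted p = 8.21e-05). On the other side Retsat and Tgoln1 did not pass (adjusted p = 0.593 and 0.0763). Beside Parvg, Samm50, Pnpla3, Shisal1 and Upk3a did not pass, and Nup50 fell by 0.71 (adjusted p = 0.0321), but not without the resting pair (-0.68), without the LPS and TSA + LPS pair (-0.54), with the raised floor or with probes averaged (-0.25). Around Actb and Fscn1 on chromosome 5, Wipi2 rose by 0.73 (adjusted p = 0.0464), but not without the LPS and TSA + LPS pair (0.34) or under 4 other settings (filter on the mean level, no trend, raised floor, quantile normalization), and Papolb, Zfp316, Kdelr2 and Rac1 did not pass. Fscn1 differed with LPS by a mean of 1.73 and its immediate neighbour Actb by 0.38 ± 0.53 (SD, n = 2 pairs).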

How the data were processed

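Per the labels' protocols, column-purified RNA was primed with oligo-dT and copied into biotinylated RNA. The deposited intensity values are linear and share nearly the same median on every array; the scaling and background methods are not given in the sources used here. Of 10076 probes 8983 carried 1 symbol, 1 several and 1092 none, and a gene with several probes was read from the one with the highest mean. Values were floored at each array's 25th percentile and log2-transformed. limma 3.58.1 (R 4.3.3, empirical Bayes, intensity trend) fitted 5080 genes at or above the median on at least 1 array. The fit had 2 residual and 16.9 prior degrees of freedom, or 1 residual degree and an unlimited prior with the TSA by LPS term. Its test on simulated arrays used additive effects and noise taken from the fit itself. That test cannot show how the fit does where effects are not additive. Any p-value rests on how well the 6 arrays follow an additive model, which may reflect technical spread, and their number limits the precision. The members, lists and tests were chosen with earlier results of these data known. Named genes are the 3 largest TSA and LPS differences per list, all called genes of lists with 5 or fewer calls, relatives and the 5 most alike genes; other called genes and the chromosome neighbours were added after their values were seen. Alternatives varied the scaling, floor, filter, probes, trend and pairs. The results of 1 of the 7 actin lists are not reported here on their own; its genes stay in the totals. Figures used matplotlib 3.10.9.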

Additional observations from a re-analysis of the deposited data

Results flagged for a closer look

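As deposited, Actb and Capg differed in direction between pairs of arrays under the same treatment, each pair standing for 1 background, and these differences between backgrounds were not tested. With TSA, Actb had a log2 difference of -0.51 at rest, 0.24 under LPS and -0.07 under GW3965 + LPS, and was lower in all 3 after quantile normalization (-0.38, -0.21 and -0.13) and cyclic loess (-0.70, -0.32 and -0.21). With GW3965 it had 0.03 in LPS cells and -0.28 in TSA + LPS cells, which became -0.08 and 0.00 after quantile normalization and -0.26 and -0.15 after cyclic loess. Capg had 0.30 with LPS in cells without TSA and -0.60 in cells given TSA, which became -0.08 and -0.75 after quantile normalization, both lower, and 0.13 and -0.79 after cyclic loess. With GW3965 Capg had -0.36 in LPS cells and 1.09 in TSA + LPS cells, opposite after either scaling too (-0.40 and 0.97, -0.45 and 1.07), where the 2 TSA arrays compared read 40.6 and 19.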

How the results depend on the processing

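No paired analysis was possible because the labels number no replicates and each group has 1 array; arrays were paired by treatment background alone. The count of other actin genes that fell with TSA was 17, 4 with the floor raised to the array median and 9 to 18 with 1 pair of arrays left out; the count that rose was 4, 1 and 1 to 5. With LPS the count that rose was 14 and 8 with that floor, and the count that fell was 3, 0 with that floor and 8 after quantile normalization. With that floor the fit called fewer of all genes too, with 241 risen and 100 fallen for TSA in place of 557 and 383. Quantile normalization moved the median of all measured genes in LPS against No treatment from 0.02 to -0.17. The mean log2 difference of Parvg with TSA was -0.85 in place of -1.67 with that floor, and that of Fscn1 with LPS 0.83 in place of 1.73, because low values are raised to the floor. The mean for Parvg with GW3965 was -0.34 and became -0.28 after quantile normalization, -0.31 after cyclic loess and -0.18 with that floor; the cause of the scaling shifts was not tested. With 1 pair left out the mean TSA difference ran from -2.12 to -1.39 for Capg, from -1.77 to -1.48 for Parvg, from -1.01 to -0.66 for Fscn1 and from -0.29 to 0.08 for Actb. Of 28 differences of the 4 genes 10 were at least 2-fold, 10 after either scaling (after quantile normalization without Capg for GW3965 in TSA + LPS cells and with Parvg for LPS without TSA), 7 with the raised floor, and 14 at 1.5-fold. With the resting pair or the LPS pair left out an LPS effect could not be estimated, and a TSA by LPS term could not be fitted with a pair left out. Signal limits Parvg with TSA and Fscn1 without LPS, which lie between the floor and the median.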
